A study of Mus musculus with 4 samples.

Results

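The genes described here encode matricellular proteins, secreted proteins that sit in the extracellular matrix and change how cells attach to it and respond to signals, without being its main building material. They are Smoc1 and Smoc2 (secreted calcium-binding proteins of the SPARC family), Sparc and Sparcl1, the tenascin genes Tnc and Tnxb, the thrombospondin genes Thbs1 and Thbs2, Postn (periostin) and Spon1 (F-spondin). Chromatin accessibility at these 10 genes was read with ATAC-seq, where a transposase cuts and tags open DNA. The cells were mouse lymph node fibroblastic reticular cells (FRCs). A region of merged windows was a member where the midpoint of its best 300 bp window, the one with the highest count summed over the libraries, lay inside 1 of these genes or had it as the nearest protein-coding gene within 100000 bp. This gave 156 of the 110110 accessible regions of the table, with positions on build mm10. Being near a gene is no proof that a region acts on it. The summed counts chose the windows and are not used as a result.

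FRCs are the fibroblasts that build the reticular scaffold of the node, and matricellular proteins are part of what such fibroblasts secrete. SPARC-family proteins bind calcium and collagen, tenascins and thrombospondins are large glycoproteins with many binding partners, and periostin and F-spondin act in adhesion. Open chromatin marks gene starts and distal regulatory elements, and a change in accessibility is not a change in expression, which was not measured.

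The cells came from brachial, axillary and inguinal nodes of female C57BL/6 mice of 12 weeks. They were depleted of CD45+ cells and then sorted on high BP3 and on podoplanin, without CD31 or CD45. Both groups carried floxed Notch2 alleles (Notch2 fl/fl). The control group (2 libraries) was littermates without Cre, and the Notch2_cKO group (2 libraries) carried Ccl19-Cre as well, so that recombination is limited to cells in which that Cre is or was active. Each library was a pool of 6 mice. Levels below are normalized CPM, which is the count of the best window scaled to library depth and adjusted for a trend with level (loess). All best windows are 300 bp, so levels of different regions can be compared. The change of a region is the log2 ratio of Notch2_cKO to control, given with an approximate standard error (SE), and a region is called higher or lower where the adjusted p of edgeR's quasi-likelihood test, over all 110110 regions, was under 0.05.

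Best-window counts summed to between 12340742 (Notch2_cKO replicate 2) and 30260067 (Notch2_cKO replicate 1), and the 156 members held 14979 to 36106 of them per library. The region at an end of Notch2 did not pass (log2 -0.14, SE 0.10, edgeR adjusted p = 0.341), and the deletion cannot be checked from it. Control replicate 2 held 626 counts at 4 Y-linked genes against 0 to 2 in the other libraries, although all pools are labelled female, so counts are also given without it. Of 15 FRC markers, 11 had a region within 1000 bp of a gene end and 0 of them changed, with summed levels of 311 to 322 normalized CPM per library. Of 8 mural cell markers, 7 had such a region. At 4 of these (Acta2, Myh11, Notch3 and Itga7) it was lower in Notch2_cKO, and the summed level was 124 in each control against 96.4 and 94.8 in Notch2_cKO. Singly, the Acta2, Myh11 and Itga7 calls were lost without control replicate 1 (edgeR adjusted p = 0.257, 0.184 and 0.0714), Myh11 and Itga7 also without control replicate 2 (0.0505 and 0.0714) and Acta2 without Notch2_cKO replicate 1 (0.243). Of the blood endothelial markers, 2 of 8 had a region, of which the one at Tek was higher (log2 0.74, SE 0.13). At leukocyte markers 1 of 10 had one and it did not pass, with 16 to 18.6 normalized CPM. No region at an end of Pecam1, Cdh5 or Ptprc was analysed. In bulk libraries, fewer cells of a type and less accessibility per cell cannot be told apart. The part of these markers in the results below was not tested.

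Gene-start sequence was at hand for 5 of the 10 genes (Sparc, Tnc, Tnxb, Thbs2 and Postn). Shown are the 250 bases before the start of Thbs2 and Sparc, whose start regions were higher in Notch2_cKO, and of Tnc, whose start region was among the most open members and did not pass. They are from RefSeq, build GRCm38.p6, written 5′ to 3′ on the gene's strand (minus for all 3). Capitals mark matches to the motifs searched on both strands: the RBPJ core TGGGAA (RBPJ is the DNA-binding partner of Notch), AP-1 TGANTCA, TEAD GGAATG and E-box CACGTG. RBPJ and TEAD motifs can share bases.
Thbs2, chr17:14694263-14694512: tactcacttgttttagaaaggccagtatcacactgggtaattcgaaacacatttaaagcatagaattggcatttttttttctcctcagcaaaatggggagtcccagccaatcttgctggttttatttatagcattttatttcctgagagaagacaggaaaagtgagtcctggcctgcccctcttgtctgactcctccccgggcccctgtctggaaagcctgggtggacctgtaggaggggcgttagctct
Sparc, chr11:55420081-55420330: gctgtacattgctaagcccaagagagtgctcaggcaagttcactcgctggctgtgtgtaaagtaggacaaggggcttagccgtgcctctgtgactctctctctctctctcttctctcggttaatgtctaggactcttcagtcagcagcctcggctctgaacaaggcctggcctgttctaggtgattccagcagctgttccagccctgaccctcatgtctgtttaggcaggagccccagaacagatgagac
Tnc, chr4:64047016-64047265: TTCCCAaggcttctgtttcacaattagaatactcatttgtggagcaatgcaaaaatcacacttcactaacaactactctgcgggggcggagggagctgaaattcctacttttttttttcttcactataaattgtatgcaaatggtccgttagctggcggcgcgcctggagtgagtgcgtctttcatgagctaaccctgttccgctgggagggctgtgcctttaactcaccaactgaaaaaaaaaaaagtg
The Thbs2 and Sparc windows held 0 matches to any of the 4 motifs. The Tnc window held 1, the RBPJ core at its far edge on the reverse strand, 250 bases before the start. A second Tnc start in the table also had 1 RBPJ core, 81 bases before it, and Tnxb had 1 AP-1 match, 55 bases before a start at 34670535. Among all 32851 gene starts of the table, 21.6% held the RBPJ core in a window of this length, 6.75% AP-1, 12.6% TEAD and 6.02% the E-box. A match is a description of the letters and not a binding site.

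Accessibility at the 10 genes differed between the genotypes mostly upward. Of 156 regions, 43 were higher in Notch2_cKO (27.6%), 13 were lower (8.33%) and 100 did not pass, where over all regions tested 12.5% were higher and 11.2% lower. The median log2 change was 0.21 over the members and 0.01 over all regions. The genes were chosen with earlier results of these data known, so these contrasts are a description and not a test. Higher regions occurred at 9 genes and lower ones at 5. The change was 2-fold or more in 21 higher and 4 lower regions. In all 56 called regions both Notch2_cKO libraries lay beyond both controls, which is close to given, since the calls were made on the same values. Over the 156 members both Notch2_cKO libraries were above both controls in 71 and below them in 39, against 30.4% above and 29.5% below over all regions. Smoc2 alone gave 14 of the higher regions. The other 9 genes together had 29 higher (21.8%) and 13 lower (9.77%) of 133 regions, with a median log2 change of 0.16.

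**Figure D1:**
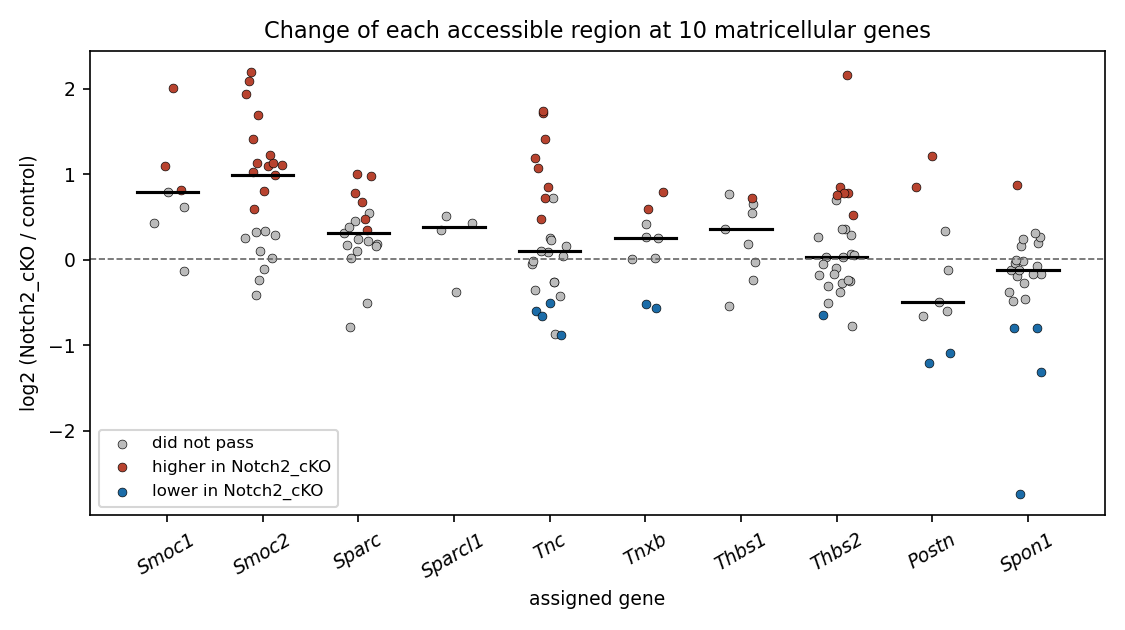
Log2 change (Notch2_cKO over control, vertical axis) of each of the 156 regions, grouped by assigned gene. Points are regions, coloured by whether they were called higher or lower or did not pass, black bars are gene medians and the dashed line is the median of all regions (0.01). With all 4 libraries, Smoc2 and Smoc1 have the highest medians (0.99 and 0.79) and Postn the lowest (-0.49), and without Notch2_cKO replicate 1 these are 0.63, 0.85 and -0.14.

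These counts depended on the libraries and the tool. Without control replicate 2, 31 members were higher and 6 lower, against 8.12% and 7.47% of all regions, and without control replicate 1 they were 35 and 11, against 9.25% and 7.26%. Without Notch2_cKO replicate 1, 36 were higher and 8 lower (5.13%), against 11% and 8.68%. DESeq2 called 24 of 155 members higher (15.5%) and 5 lower (3.23%), against 6.96% and 5.13% of all regions it tested. With each library centred on its median, 39 were higher (25%) and 18 lower (11.5%), where over all regions 10.9% were then higher and 16% lower.

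Smoc2 encodes a SPARC-family protein of the extracellular matrix, and its gene spans 14279490 to 14404790 on chromosome 17. Of its 23 regions 14 were higher in Notch2_cKO, 0 lower and 9 did not pass, and 20 had a positive log2 change. The called changes ran from 0.60 to 2.20 (median 1.13). Without control replicate 2, 11 of the 14 were called, without control replicate 1 and without Notch2_cKO replicate 2 each 13, and without Notch2_cKO replicate 1 again 11. DESeq2 called 8. Without Notch2_cKO replicate 2, a single Smoc2 region was called lower. The median over the 23 regions was 0.99, and 0.63 without Notch2_cKO replicate 1. Around it, within 500000 bp, 43 non-member regions were tested, of which 7 were higher and 3 lower, with a median log2 change of -0.09.

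At the lower-coordinate end of Smoc2, the region from 14279201 to 14279750 straddled the end of the gene. Raw counts were 116 and 121 (control) and 371 and 120 (Notch2_cKO), which is 5.15 and 4.77 normalized CPM in the controls and 12 and 9.34 in Notch2_cKO. Both Notch2_cKO libraries stood well above both controls (log2 1.13, SE 0.17, edgeR adjusted p = 7.27e-05). This call held in all 12 alternatives run on it, with log2 changes of 0.92 to 1.28. Among all regions within 1000 bp of a gene end, 5.73% were higher.

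The Smoc2 region of smallest p lay 50910 bp beyond the other end of the gene, from 14455451 to 14455950. It held 1.32 and 0.875 normalized CPM in the controls and 5.39 and 3.48 in Notch2_cKO, with a log2 change of 2.09 (SE 0.27, edgeR adjusted p = 1.32e-05). A region only 3260 bp beyond that end, from 14407751 to 14408350, rose from 0.732 and 0.644 to 2.57 and 2.78 (log2 1.94, SE 0.28, edgeR adjusted p = 4.95e-05). Both had low levels in the controls, and both calls held in all 12 alternatives. The change of 2.20, the highest at Smoc2, was in a single window inside the gene, 14370501 to 14370800, picked out here after its values were seen. It rests on raw counts of 9 and 10 (control) and 55 and 24 (Notch2_cKO), or 0.379 and 0.411 against 1.83 and 1.84 normalized CPM.

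The 14 higher regions were spread over 220900 bp, from 14244551 to 14465450. Of the 4 regions before the gene 2 were higher, of the 12 inside it 6 (the gene-end region included) and of the 7 beyond it 6. Their mean levels were 0.392 to 4.96 normalized CPM in control and 1.32 to 10.7 in Notch2_cKO. The most open Smoc2 region, 25290 bp before the gene, was not among them. It held 9.71 and 8.09 normalized CPM in the controls and 13 and 8.67 in Notch2_cKO, so the groups overlapped (log2 0.33, SE 0.18, edgeR adjusted p = 0.195). That value depended on 1 library, with log2 0.56 (edgeR adjusted p = 0.00343) without Notch2_cKO replicate 2 and -0.02 without Notch2_cKO replicate 1.

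**Figure D2:**
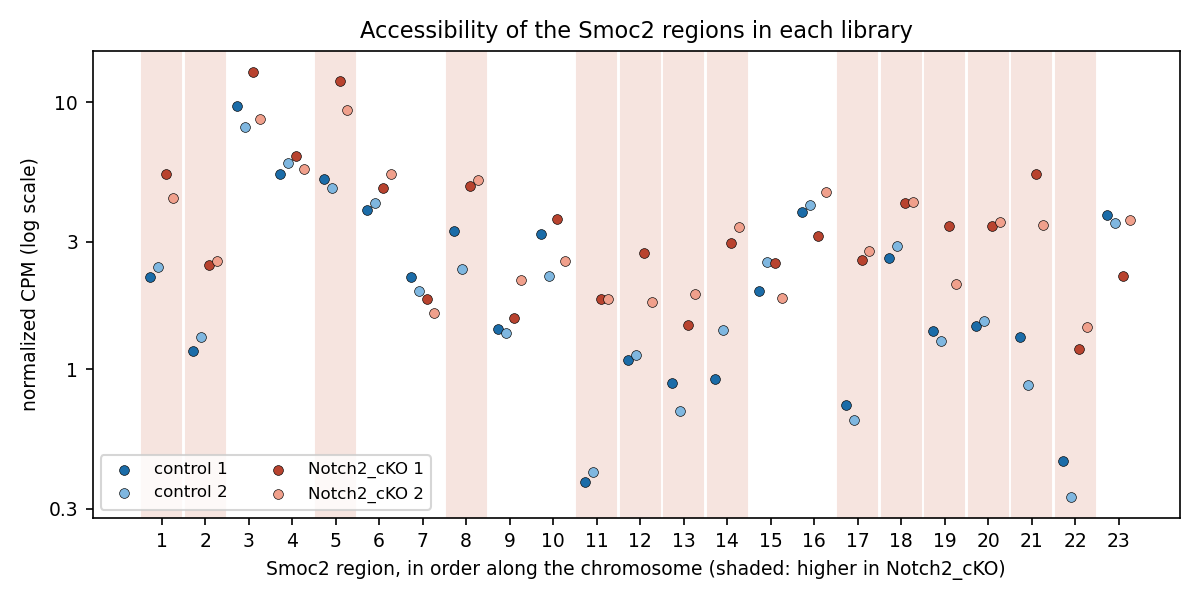
Normalized CPM (log axis) of the 23 Smoc2 regions in each of the 4 libraries, in order along the chromosome. Points are libraries and shading marks the 14 regions called higher, in each of which both Notch2_cKO points lie above both control points.

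Over the 4 libraries, the regions elsewhere whose levels moved most like the Smoc2 region of smallest p were assigned to Sfrp1, Dhrs9 and Tmem17. Their distances, taken on log2(normalized CPM + 0.5) with each region centred on its own mean, were 0.0999, 0.139 and 0.15. With 4 libraries and 110110 regions this is only a description.

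Thbs2 is a neighbour of Smoc2, with 260709 bp between the genes, and encodes a thrombospondin that limits blood vessel growth. It had 6 higher and 1 lower of 27 regions, and 20 did not pass (median log2 0.04, or -0.01 with each library centred on its median). Without control replicate 2, 5 were higher and 0 lower. Of the 45 non-member regions around Thbs2, 7 were higher and 6 lower (median log2 -0.02). The strongest rise of a Thbs2 region lay between the genes, 45300 bp from Thbs2, at 14619901 to 14620500. It held 2.27 and 1.23 normalized CPM in the controls and 7.38 and 8.19 in Notch2_cKO (log2 2.16, SE 0.23, edgeR adjusted p = 1.75e-06) and was called in all 12 alternatives. This region is 154450 bp beyond the last higher Smoc2 region.

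The Thbs2 start region, 14693901 to 14694550, overlaps the gene-start sequence printed above and was the most open Thbs2 region. Its levels were 36.9 and 33.8 normalized CPM in the controls and 51 and 50.8 in Notch2_cKO, which did not overlap (log2 0.53, SE 0.10, edgeR adjusted p = 0.000681). Without control replicate 2 the change was 0.47 and the call was lost (edgeR adjusted p = 0.0532). A region 24738 bp away, at 14718651 to 14719250, went from 12.1 and 10.6 to 18.1 and 20.4 normalized CPM (log2 0.76, SE 0.14, edgeR adjusted p = 0.000563). The 1 lower region, 24650 bp from the gene on the Smoc2 side, went from 15.9 and 18.1 to 10.8 and 11.2 (log2 -0.64, SE 0.14, edgeR adjusted p = 0.00259). That call too was lost without control replicate 2 (edgeR adjusted p = 0.062).

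**Figure D3:**
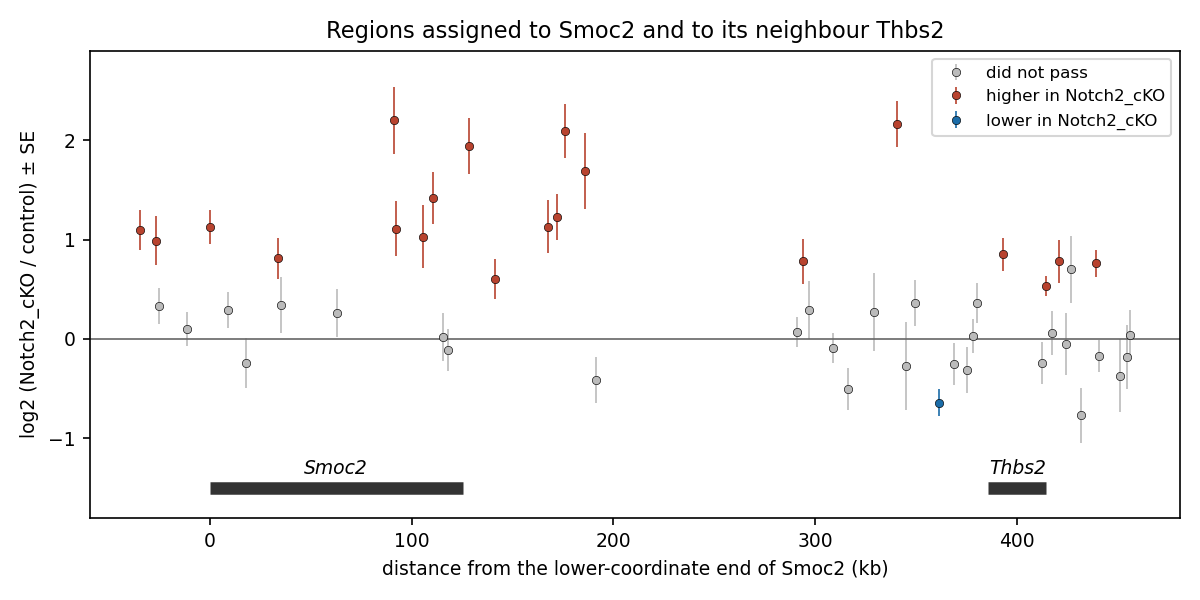
Log2 change with SE bars of the regions assigned to Smoc2 and Thbs2, against distance in kb from the lower-coordinate end of Smoc2. Black bars are the genes. Higher regions lie throughout and around Smoc2, 14 of 23, and are sparser around Thbs2, 6 of 27, where 1 region is lower.

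Smoc1, the paralog of Smoc2 and a gene whose product acts on BMP signalling, had 3 regions higher, 0 lower and 4 that did not pass, of 7 (median log2 0.79). It lies on chromosome 12, from 81026808 to 81186414, and 3 of 52 non-member regions around it were higher and 0 lower (median log2 0.01). All 3 higher regions were inside the gene. The largest change was at 81112301 to 81112850, with raw counts of 7 and 18 (control) and 66 and 26 (Notch2_cKO). In normalized CPM these are 0.297 and 0.733 against 2.18 and 2 (log2 2.01, SE 0.35, edgeR adjusted p = 0.000272). With so few counts the estimate ranged from 1.38 to 2.82 over 11 alternatives, all of them called. A region at 81155551 to 81156200 rose from 2.09 and 2.54 to 4.89 and 5.17 (log2 1.10, SE 0.20, edgeR adjusted p = 0.000488). The third, at 81167001 to 81167550, had log2 0.82 and was not called without control replicate 2 (log2 0.55, edgeR adjusted p = 0.314) or without Notch2_cKO replicate 1 (log2 0.85, edgeR adjusted p = 0.0863).

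The region at the end of Smoc1 (81026601 to 81027100) did not pass. It held 3.14 and 3.18 normalized CPM in the controls and 3.18 and 2.39 in Notch2_cKO (log2 change -0.13, SE 0.21, edgeR adjusted p = 0.724). The difference in change between the end regions of Smoc1 and Smoc2 was not tested.

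Sparc encodes the founding member of the family, a collagen-binding glycoprotein. Its 19 regions on chromosome 11 were mostly small in change: 6 higher, 0 lower and 13 not passing, with a median log2 change of 0.31 (0.20 without Notch2_cKO replicate 1). The 63 non-member regions within 500000 bp had a median of 0.32, with 14 higher and 2 lower, close to that of the Sparc regions themselves. The start region, 55419551 to 55420200, held 23.4 and 25.1 normalized CPM in the controls and 32.8 and 28.5 in Notch2_cKO (log2 0.35, SE 0.12, edgeR adjusted p = 0.0388). This call was lost without either control, without Notch2_cKO replicate 1, with TMM scaling or median centring, with the replicate block, and in limma and DESeq2, with edgeR adjusted p from 0.184 to 0.354 in the first 3. The region of smallest p, 1459 bp beyond the far end of the gene, rose from 4.67 and 4.85 to 7.8 and 7.44 (log2 0.68, SE 0.17, edgeR adjusted p = 0.00535). Without control replicate 1 it had log2 0.65 and edgeR adjusted p = 0.0524. The most open Sparc region, 8270 bp before the start, held 45 and 42.7 against 51 and 46.8 normalized CPM and did not pass (edgeR adjusted p = 0.26). As a whole the Sparc count was unstable: 1 higher without control replicate 1 or without Notch2_cKO replicate 1, each with 1 lower, 3 higher without control replicate 2 and 9 without Notch2_cKO replicate 2.

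Sparcl1, which encodes the related protein hevin, had 4 regions on chromosome 5 and 0 called. Around the gene, 9 of 66 non-member regions were higher and 7 lower (median log2 0.14). The Sparcl1 changes ran from -0.38 to 0.51. Its gene-end region, 104113551 to 104114250, held 5.21 and 4.03 normalized CPM in the controls and 5.08 and 7.11 in Notch2_cKO, which overlapped (log2 0.35, SE 0.20, edgeR adjusted p = 0.223). Of the 12 alternatives it was called in 1, without Notch2_cKO replicate 1 (log2 0.64, edgeR adjusted p = 0.0313).

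**Figure D4:**
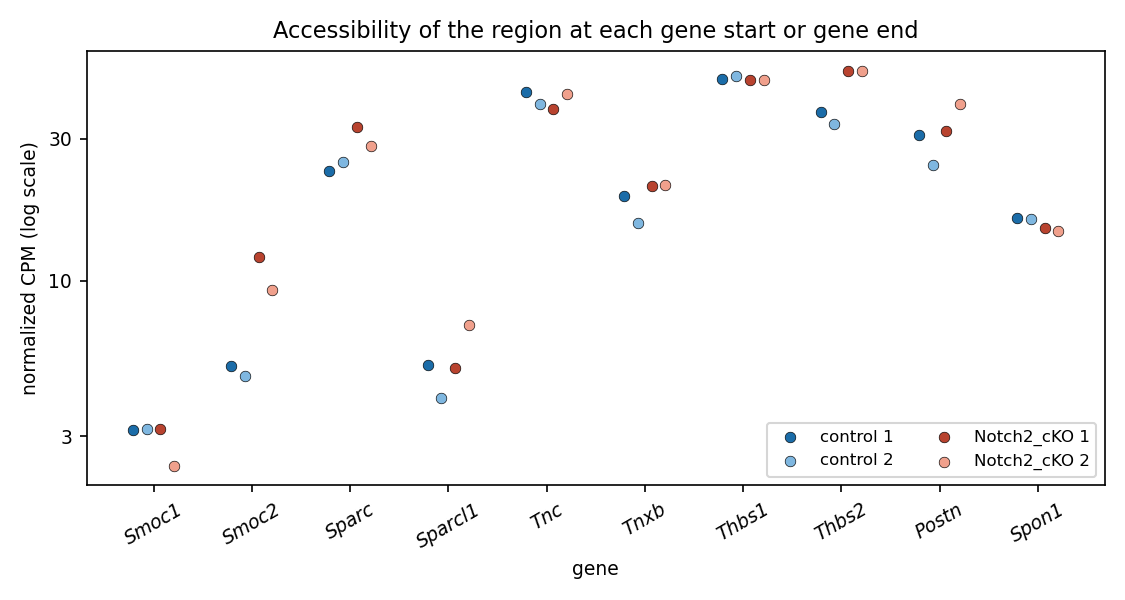
Normalized CPM (log axis) in each library of the region at the gene start, or at either gene end where the strand was not known, for the 10 genes. Points are libraries. Both Notch2_cKO points lie above both control points and the region was called at Smoc2, Sparc and Thbs2, while Tnc, Thbs1 and Spon1 are near level.

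Tnc encodes tenascin-C, a matrix glycoprotein of remodelling tissue, on the minus strand of chromosome 4 from 63959785 to 64047015. Its 26 regions went both ways, with 8 higher, 4 lower and 14 not passing (median log2 0.10, or -0.05 without Notch2_cKO replicate 2 and 0.01 without control replicate 2). Higher and lower regions were interleaved inside the gene. Of the 65 surrounding regions 10 were higher and 12 lower. The start region, 64046701 to 64047350, held 43.3 and 39.4 normalized CPM in the controls and 37.8 and 42.4 in Notch2_cKO, so the groups overlapped (log2 -0.05, SE 0.11, edgeR adjusted p = 0.787). It overlaps the Tnc sequence printed above, which covers only part of it.

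Inside Tnc, 30565 bp from its far end, the region at 63990051 to 63990650 had the smallest p. It held 2.85 and 3.79 normalized CPM in the controls and 9.2 and 8.44 in Notch2_cKO (log2 1.41, SE 0.18, edgeR adjusted p = 1.54e-05). A region nearer the start, 64029551 to 64030100, rose from 5.9 and 4.89 to 10.9 and 11.8 (log2 1.07, SE 0.16, edgeR adjusted p = 8.95e-05). Far outside the gene, 93035 bp before the start, a weak region rose from 0.774 and 0.725 to 2.5 and 2.55 (log2 1.74, SE 0.28, edgeR adjusted p = 0.000126). These 3 calls held in all 12 alternatives.

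The lower Tnc regions were less stable. One 5035 bp before the start, 64051701 to 64052350, fell from 7.03 and 7.31 to 3.46 and 4.64 normalized CPM (log2 -0.88, SE 0.19, edgeR adjusted p = 0.00172), with edgeR adjusted p = 0.0548 without Notch2_cKO replicate 1. Another, 94585 bp before the start and next to the weak region that rose, fell from 4.63 and 4.76 to 2.72 and 3.47 (log2 -0.65, SE 0.20, edgeR adjusted p = 0.0232). It was not called without either control or without Notch2_cKO replicate 1 (edgeR adjusted p = 0.0677, 0.107 and 0.3). Without Notch2_cKO replicate 1, 0 of the 4 lower regions were called, without control replicate 1 it was 1 and without control replicate 2 it was 2. The 2 most open Tnc regions, 29685 and 31235 bp before the start, held 44.3 to 58.6 normalized CPM over the 4 libraries and did not pass.

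**Figure D5:**
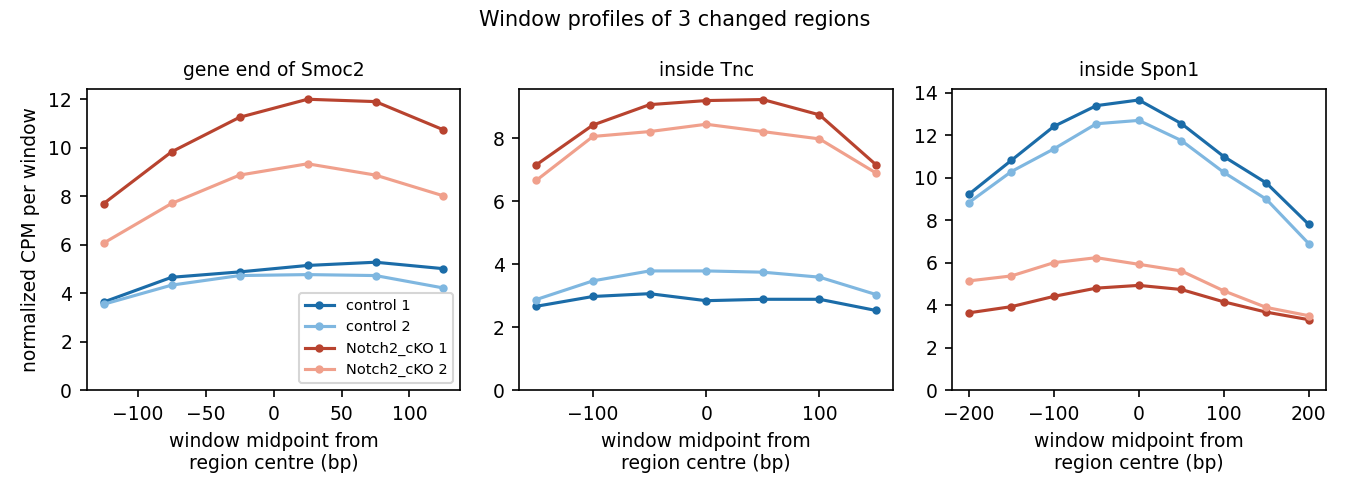
Normalized CPM of each overlapping 300 bp window, against the distance of its midpoint from the region's centre, for the gene-end region of Smoc2 and for the regions of smallest p at Tnc and Spon1. Lines are libraries. In each window of the Smoc2 and Tnc regions both Notch2_cKO lines are above both control lines, and in the Spon1 region both are below.

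Tnxb encodes tenascin-X, which associates with collagen fibrils. All 9 of its regions were inside the gene, 34660453 to 34719815 on chromosome 17, and 2 were higher, 2 lower and 5 not passing. The 2 higher ones were at neighbouring positions: 34684151 to 34684550 rose from 6.61 and 5.24 to 9 and 8.94 normalized CPM (log2 0.60, SE 0.17, edgeR adjusted p = 0.0128), and 34685601 to 34686200 from 8.63 and 10 to 18 and 13.7 (log2 0.79, SE 0.16, edgeR adjusted p = 0.00108). The 2 lower ones lie just beyond them. At 34690301 to 34690950 levels went from 5.48 and 6.76 to 4.18 and 4.1 (log2 -0.56, SE 0.18, edgeR adjusted p = 0.0307), and at 34692801 to 34693500 from 16.6 and 18.3 to 12.5 and 11.9 (log2 -0.52, SE 0.14, edgeR adjusted p = 0.00971). Without control replicate 2 only the 0.79 change was still called (log2 0.88). Of 99 surrounding regions, 2 were higher and 2 lower. The region within 1000 bp of 34660453, taken here as the gene start, held 19.3 and 15.7 against 20.9 and 21 normalized CPM. It did not pass (edgeR adjusted p = 0.181). The AP-1 match given above lies before another Tnxb start, at 34670535, and the 250 bases before that start overlap no member region.

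Thbs1 encodes thrombospondin-1, an activator of latent TGF-beta, on chromosome 2 from 118111876 to 118127133. Of the 82 non-member regions around it, 19 were higher and 3 lower (median log2 0.16). Thbs1 itself had 1 higher and 0 lower of 9 regions, none of them inside the gene. The higher one, 59376 bp away at 118052201 to 118052800, rose from 4.23 and 4.19 to 6.9 and 6.96 normalized CPM (log2 0.72, SE 0.17, edgeR adjusted p = 0.00458) and held in all 12 alternatives. The region at the gene end, 118111701 to 118112000, was level at 47.8 and 48.7 against 47.5 and 47.4 (log2 -0.02, SE 0.10, edgeR adjusted p = 0.889). Without Notch2_cKO replicate 1, 3 Thbs1 regions were higher.

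Postn encodes periostin, a matrix protein of fibroblasts. Of the 43 non-member regions around the gene, 3 were higher and 1 lower (median log2 0.05). Postn itself had 2 higher, 2 lower and 5 regions that did not pass of 9 on chromosome 3, with a median log2 change of -0.49. That median was -0.14 without control replicate 2 and without Notch2_cKO replicate 1, and 0.11 over the 2 regions within 10000 bp. Without Notch2_cKO replicate 2, 1 region was higher and 4 were lower. The region next to the start, 54358401 to 54359000, was the most open, with 31 and 24.5 normalized CPM in the controls and 31.8 and 39.2 in Notch2_cKO (log2 0.34, SE 0.13, edgeR adjusted p = 0.065). It was called higher without control replicate 1 (log2 0.51, edgeR adjusted p = 0.0482) and without Notch2_cKO replicate 1 (log2 0.51, edgeR adjusted p = 0.000114). Beyond the gene the called regions were ordered by distance. At 26959 and 45459 bp they were lower, and at 83459 and 89509 bp higher. The lower one of smaller p, 54436201 to 54436800, fell from 4.14 and 3.5 to 1.88 and 1.24 (log2 -1.20, SE 0.24, edgeR adjusted p = 0.000996). The higher one of smaller p, 54480201 to 54480750, rose from 1.26 and 0.964 to 2.49 and 2.7 (log2 1.21, SE 0.26, edgeR adjusted p = 0.00198). Both held in all 12 alternatives. The calls at 26959 and 83459 bp did not hold without control replicate 2 (edgeR adjusted p = 0.242 and 0.221), nor the first without Notch2_cKO replicate 1 (0.0519) and the second without Notch2_cKO replicate 2 (0.199).

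Spon1, the F-spondin gene, lies on chromosome 7 from 113765998 to 114043375. Of the 45 non-member regions around it, 2 were higher and 6 lower (median log2 -0.04). Spon1 itself had 4 lower regions of 23, with 1 higher and 18 not passing (median log2 -0.12). Over all regions 11.2% were lower and 12.5% higher. DESeq2 called 2 of the 4 lower Spon1 regions and 0 higher ones. The region of smallest p, 113798651 to 113799350, lay 33002 bp inside the gene. It held 13.7 and 12.7 normalized CPM in the controls and 4.94 and 5.93 in Notch2_cKO (log2 -1.31, SE 0.16, edgeR adjusted p = 9.39e-06). Nearby, at 113795201 to 113795750, accessibility fell from raw counts of 50 and 50 (control) to 5 and 8 (Notch2_cKO), or from 2.12 and 2.04 to 0.166 and 0.614 normalized CPM (log2 -2.74, SE 0.41, edgeR adjusted p = 6.37e-05). Both calls held in every alternative in which they were tested, with log2 changes from -3.65 to -1.58 for the weaker region. The gene-end region, 113765851 to 113766450, was level at 16.3 and 16.2 against 15.1 and 14.7 (log2 -0.12, SE 0.13, edgeR adjusted p = 0.556). The 1 higher region, 114016151 to 114016700 (log2 0.88, SE 0.26, edgeR adjusted p = 0.019), was not called without control replicate 2 (0.115) or without Notch2_cKO replicate 2 (0.0554). A lower region at 113965501 to 113966050 (log2 -0.80, SE 0.20, edgeR adjusted p = 0.00637) was not called without control replicate 1 (0.0847).

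By place, 11 member regions lay within 1000 bp of a gene end, of which 3 were higher and 0 lower, against 5.73% and 4.43% of all such regions. Of the 61 other regions inside genes 19 were higher (31.1%) and 8 lower (13.1%), against 13.5% and 11.5% of all regions so placed. Of the 84 outside genes 21 were higher (25%) and 5 lower (5.95%), against 13.2% and 11%. Smoc2 held 11 of these 84, of which 2 before the gene and 6 beyond it were higher. The shares by place and by level were not taken without Smoc2. 37.3% of the 51 members in the lowest of 3 equal level bins of all regions changed, 33.3% of 57 in the middle bin and 37.5% of 48 in the highest. Over all regions these shares were 19.1%, 29.1% and 23%.

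Other genes of these families and their relatives (CCN proteins, osteopontin, further thrombospondins and tenascins, SPOCK proteins and fibulins) were read in the same way. At their 23 genes 45 of 225 regions rose (20%) and 26 fell (11.6%), where 12.5% and 11.2% of all regions did, and the median log2 change was 0.06. This list and the receptor list below were also chosen with earlier results of these data known. Fewer regions at the 23 genes were lower without control replicate 1 or without Notch2_cKO replicate 1. The share of all regions fell too, and that of the 23 genes then lay below it. Named below are up to 3 regions of smallest p, 1 per gene. The smallest p was at Spp1, the osteopontin gene, where a region 27411 bp away rose from 0.712 and 0.634 to 7.7 and 6.72 normalized CPM (log2 3.43, SE 0.24, edgeR adjusted p = 1.91e-08). Regions near Tnr, the tenascin-R gene (log2 3.66, SE 0.30), and inside Efemp1, a fibulin-type gene (log2 2.24, SE 0.18), followed. All 3 held in all 12 alternatives. At Comp, a thrombospondin gene, 3 of 3 regions were higher. At Spock3 5 of 16 were lower and 0 higher.

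Receptors for matricellular proteins (integrins, syndecans, Cd36, Cd47, Lrp1, Stab1 and Eng) had 172 regions at 14 genes. Of these 26 were higher (15.1%) and 31 lower (18%), against 12.5% and 11.2% of all regions, with a median log2 change of -0.08. Without control replicate 2 fewer receptor regions were higher. The share of all regions fell too, and that of the receptor regions then lay below it. The smallest p values were at higher regions, inside Itgb5 (log2 2.17, SE 0.22), Itga9 (log2 2.15, SE 0.22) and Eng (log2 1.50, SE 0.21), each called in all 12 alternatives. At Cd36, a receptor of thrombospondins, 6 of 12 regions were lower and 0 higher. At Itga8, an integrin subunit that binds tenascin-C, 6 of 19 were lower and 0 higher. At Itgb3 4 of 6 and at Itgb5 4 of 14 were higher and 0 lower.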

How the data were processed

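ATAC-seq was made from sorted lymph node FRCs in 4 libraries, 2 control and 2 Notch2_cKO, each labelled a pool of 6 mice. The deposited values are whole-number counts for 678058 windows of 300 bp, 1 column per library, on mm10. The authors' labels call these counts loess normalized, but the columns summed to totals differing 2.44 times and still showed offsets with level, so they were treated as raw. The submitters' processing notes name deepTools, Bowtie2 2.4.5 and Trim Galore 0.6.7 among others. The labels also name csaw, which uses edgeR with loess offsets. The settings of these tools, any other peak caller and any Tn5 shift of the reads were not given in the sources used here.

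Merging windows with gaps of at most 100 bp gave 110110 regions, each represented by its window of highest summed count. Regions were assigned to protein-coding RefSeq genes (GRCm38.p6) by overlap or, failing that, to the nearest within 100000 bp. Counts were fitted with edgeR 4.0.16 (quasi-likelihood, loess offsets from limma 3.58.1) and p-values adjusted by Benjamini-Hochberg over all regions; the code was tested on simulated data. SE is the log2 change divided by the root of F. The members and gene lists were chosen with earlier results of these data known. Named for each gene are the gene-start region (either end where no strand was known), the most open region and up to 3 called regions of smallest p in each direction; others are named as examples after their values were seen. Motif positions and sequences come from RefSeq gene starts, which matched 5 of 10 genes. Alternatives were other scalings, DESeq2 1.42.0, limma, a filter on low regions, a threshold of 0.01, a replicate block, other merging and assignment distances, and leaving out each library.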

Additional observations from a re-analysis of the deposited data

How the results depend on the processing

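Of the 156 member regions, 43 were higher and 13 lower in the reported fit. DESeq2 gave 24 and 5, and for the related genes 10 lower (26 reported), and for the receptors 14 higher and 16 lower (26 and 31 reported). Of all regions it tested, DESeq2 called 6.96% higher and 5.13% lower. At an adjusted p under 0.01, 7 of 156 members, 13 of 225 regions of related genes and 20 of 172 of receptors were lower. Of the receptor regions 16 were higher. At that threshold 7.74% of all regions were higher and 6.39% lower. With genes within 10000 bp only, 25 members were higher, since fewer regions are then assigned. Leaving out 1 library at a time, members ranged from 31 to 43 higher and 6 to 16 lower, related genes from 35 to 49 and 15 to 33, and receptors from 12 to 29 and 23 to 37. The shares of all regions called also moved with the library left out. These counts alone therefore do not set the lists apart from all regions. The receptor share higher lay below that of all regions without control replicate 2. So did the related-gene share lower without control replicate 1 or without Notch2_cKO replicate 1. With the replicate number as a block, 38 members were higher and 11 lower (11.1% and 9.77% of all regions), related genes 40 and 21, and receptors 24 and 29. Same-numbered libraries were not paired by the labels, and the correlation of their deviations was -0.179. A crossed block, chosen after seeing the data, gave 47 higher and 21 lower members (30.1% and 13.5%), against 16.5% and 15.3% of all regions.

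Among the named regions, those that changed sign were ones that did not pass. Of the gene medians, those of Tnc (0.10) and Thbs2 (0.04) changed sign, to -0.05 without Notch2_cKO replicate 2 and to -0.01 with median centring, as did that of Postn (-0.49), to 0.11 with genes within 10000 bp. The most open Tnc region (0.09) became -0.07 with TMM, -0.16 with median centring, -0.01 with total count scaling, -0.07 in DESeq2 and -0.04 without Notch2_cKO replicate 2, and was at most 0.22 (without Notch2_cKO replicate 1). With median centring the most open Sparc and Thbs1 regions became -0.06 and -0.07. Leaving out 1 library at a time, the Tnc start ranged from -0.12 to 0.05 (0.01 without control replicate 1), the most open Smoc2 region from -0.02 to 0.56 and the Smoc1 end from -0.39 to 0.01. Median centring moved the median of all regions from 0.01 to -0.09. The causes were not tested. There were 2 libraries a group, and the weakest regions named rest on few counts.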
